A study of Mus musculus with 4 samples.

Results

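The 10 genes described here encode the transforming growth factor β (TGF-β) ligands (Tgfb1, Tgfb2, Tgfb3), their receptors (Tgfbr1, Tgfbr2, Tgfbr3) and the latent TGF-β binding proteins (Ltbp1, Ltbp2, Ltbp3, Ltbp4). They were chosen by name, as the ligand, receptor and latent binder families, and are 10 of the 53703 features counted in the libraries. The rule uses no measured value, although the families were picked with earlier results of these data known, and no member is one of the marker genes that define the cell types below.

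TGF-β is secreted as an inactive complex: the mature dimer stays bound to its own propeptide, and a latent binding protein ties this complex to fibrillin and fibronectin in the extracellular matrix. Integrins, proteases and thrombospondin release the ligand, which then binds TGFBR2 and recruits TGFBR1, the kinase that phosphorylates the receptor-regulated Smad proteins. TGFBR3 (betaglycan) is a coreceptor that presents the ligand, TGF-β2 in particular. Bone matrix is a large store of latent TGF-β1, and signalling by the family takes part in chondrocyte maturation, bone formation, vessel wall assembly and fibrosis.

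The data are 4 droplet-based single-cell RNA-seq libraries. Their cells were the non-hematopoietic fraction of the metaphyses of femurs and tibiae, taken from mice aged 12 weeks. Of these, 2 libraries came from mutants labelled Lats2iECKO, which carry loxP-flanked Lats2 alleles and the tamoxifen-inducible Cre transgene Cdh5(PAC)-CreERT2, active in endothelial cells, and 2 came from Cre-negative littermates that, by the study's methods, also received tamoxifen (the label calls them untreated). LATS2 is a kinase that restrains the transcriptional coactivators YAP1 and TAZ. Cells expressing hematopoietic lineage markers, CD45 or CD117 had been depleted, animals of both sexes were used on a C57/BL6 background, and whether a library pooled several animals is not stated, so the p-values below measure only the spread between these 4 libraries.

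The libraries held 69636600 and 78953446 unique molecular identifiers (UMIs) in mutants and 83453507 and 85899079 in controls, and 5119 to 6813 barcodes per library passed the filters, with medians of 7574 to 8181 UMIs. Marker genes placed 71.1% to 81.0% of them in 6 stromal types, and each name below means cells like that type by its markers: endothelial cells (ECs), bone marrow stromal cells (BMSCs), osteoblasts (OBs), chondrocytes (CHOs), smooth muscle cells with pericytes (SMCs) and fibroblasts. Cell numbers by these markers differed between the genotypes. BMSCs numbered 547 and 686 in mutants against 2089 and 2015 in controls. OBs numbered 141 and 174 against 706 and 732, and CHOs 2042 and 2178 against 1505 and 1548. Any pair of libraries shared 6 to 16 barcodes, where 4.44 to 6.80 are expected by chance. Levels are given in CPM, the UMIs of a gene per 1000000 UMIs of all cells of that type in a library. As a check of the labels, Lats2 in ECs stood at 92.0 and 97.5 CPM in mutants and at 134 and 124 CPM in controls, and the Cre-ERT2 transgene at 54.0 and 48.8 against 0.668 and 0.851 CPM. The counts cover the whole gene and may include transcripts of the deleted allele.

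Some Leiden clusters of cells were unequally shared between the genotypes. Of 1636 barcodes in a CHO cluster led by Ptgs2, Pde11a, Rbp4 and Col10a1, 99.6% came from mutants, and of 639 in an SMC cluster led by Tmem273, Cygb and Rgs5, 93.0% did. The SMC gate's own 8 markers summed to 17229 and 17911 CPM in mutants and to 29072 and 30744 CPM in controls. The results were therefore also computed without these 2 clusters, an alternative chosen after the data were seen. Other clusters within ECs, BMSCs, OBs and CHOs also differed in their shares, although none of them came almost wholly from 1 genotype. A CHO cluster led by Msmp and Myoc held 636 and 768 barcodes in mutants and 328 and 396 in controls. One led by Rgs6 and Chil1 held 113 and 132 against 150 and 160. One led by F13a1 and Panx3 held 174 and 183 against 335 and 332, and one led by Serpina1a 443 and 478 against 553 and 558. Values without the CHO cluster of mutants still join these clusters. Of the ECs, a cluster led by Btnl9, Gpihbp1, Flt1 and Emcn held 11.2% and 8.41% in mutants and 35.3% and 33.0% in controls. An EC cluster led by Apln, Trp53i11, Nox4 and Cdh13 held 18.8% and 23.7% against 3.97% and 3.52%, one led by Vwf and Selp 25.3% and 26.1% against 9.98% and 9.70%, and one led by Stab2 and Tfpi 10.6% and 9.31% against 23.7% and 26.1%. Of the gated BMSCs, a cluster led by Mmp9 and Mmp13 held 14.4% and 12.5% in mutants and 1.24% and 1.44% in controls. Over all kept barcodes that cluster held 409 and 467 in mutants and 69 and 73 in controls. Only 25.6% of its barcodes were in a gated stromal type. With types taken from the clusters, BMSCs numbered 893 and 1095 in mutants and 2274 and 2250 in controls. Of the OB clusters, one led by Ptprz1 and Phex held 33 and 37 barcodes in mutants and 37 and 51 in controls. One led by Bglap, Bglap2 and Col1a1 held 116 and 132 against 589 and 595. The clusters were built on genes that include ones that differ between the genotypes, such as Nox4. Levels within them are given below as values with no test. Erythroid markers, hemoglobin genes among them, summed to 451 to 900 CPM in a main type of mutants and to 148 to 450 CPM in controls, and their part in the results was not tested. Free RNA was estimated to make up 1.41% to 6.76% of a class, and the free RNA level of a member was at most 14.6 CPM in any main type (Tgfbr3) and at most 6.99 CPM for the ligands (Tgfb1).

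The ligand genes lie on different chromosomes of GRCm39: Tgfb1 at chr7:25386390-25404506 on the plus strand, Tgfb2 at chr1:186354985-186438294 and Tgfb3 at chr12:86102756-86126301, both on the minus strand. Among the receptors, Tgfbr1 lies at chr4:47353134-47414931 (plus), Tgfbr2 at chr9:115913361-116004800 (minus) and Tgfbr3 at chr5:107249402-107437623 (minus). Ltbp1 lies at chr17:75312519-75699507 (plus), Ltbp2 at chr12:84829986-84923306 (minus), Ltbp3 at chr19:5790932-5808669 (plus) and Ltbp4 at chr7:27004086-27037117 (minus). Tgfb3 overlaps Ttll5 on the opposite strand. The counting mode of the authors took the strand of the reads into account.

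The 3 promoters shown are those of the ligand that changed in the most cell types (Tgfb1), the ligand with opposite directions in subclasses of ECs (Tgfb2) and the receptor that binds the ligand first (Tgfbr2). Each is the 250 bases before the annotated start of the canonical transcript (GENCODE M39), read 5′ to 3′ on the gene's strand: chr7:25386140-25386389 on the plus strand for Tgfb1, chr1:186438295-186438544 on the minus strand for Tgfb2 and chr9:116004801-116005050 on the minus strand for Tgfbr2. Capitals mark matches to the searched motifs on either strand, namely the TEAD motif GGAATG, the SMAD motif CAGACA, the ETS motif GGAAGT and the CArG box.
Tgfb1: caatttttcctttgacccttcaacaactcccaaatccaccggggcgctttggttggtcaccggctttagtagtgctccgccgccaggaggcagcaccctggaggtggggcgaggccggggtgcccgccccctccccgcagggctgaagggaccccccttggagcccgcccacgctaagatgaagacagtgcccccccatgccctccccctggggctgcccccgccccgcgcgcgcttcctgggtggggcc
Tgfb2: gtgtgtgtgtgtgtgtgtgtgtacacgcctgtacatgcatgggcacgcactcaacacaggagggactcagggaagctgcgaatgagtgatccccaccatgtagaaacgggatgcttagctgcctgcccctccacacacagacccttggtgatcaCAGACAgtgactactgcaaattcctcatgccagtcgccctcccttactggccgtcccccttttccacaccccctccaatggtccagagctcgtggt
Tgfbr2: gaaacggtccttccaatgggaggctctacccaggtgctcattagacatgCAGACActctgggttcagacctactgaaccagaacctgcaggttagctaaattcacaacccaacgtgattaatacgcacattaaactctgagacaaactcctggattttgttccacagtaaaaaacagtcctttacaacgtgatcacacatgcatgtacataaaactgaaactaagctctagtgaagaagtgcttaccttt
The Tgfb1 window held none of the 4 motifs. The Tgfb2 window held CAGACA from 96 bases before the start, and the Tgfbr2 window held it from 201 bases before the start. Of the same windows of 21770 promoters, 15.6% held CAGACA, 12.1% GGAATG, 19.0% GGAAGT and 1.40% a CArG box, and a match of letters is no measured binding site.

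In controls, Tgfb1 was highest in blood lineage cells, and Tgfb2 and Tgfb3 in SMCs. Tgfb1 stood at 517 ± 21.8 CPM (SD, n = 2) in megakaryocytes and 337 ± 0.913 CPM in leukocytes, which remained in small numbers after the depletion, and, among the stromal types, was highest in ECs at 231 ± 0.228 CPM. It stood at 111 ± 9.31 CPM in OBs, 108 ± 2.18 in CHOs and 103 ± 21.2 in fibroblasts, whose libraries overlapped, and was lowest in BMSCs (37.2 ± 0.919 CPM) and SMCs (33.9 ± 2.53 CPM). Tgfb2 was highest in SMCs (126 ± 38.9 CPM) and CHOs (114 ± 2.77 CPM), which overlapped, and lowest of the stromal types in OBs (7.43 ± 1.80 CPM). Tgfb3 was highest in SMCs (138 ± 14.1 CPM) and lowest of the stromal types in ECs (2.87 ± 1.23 CPM), which overlapped leukocytes (2.36 ± 2.33 CPM), and the highest free RNA estimate of Tgfb3 in a main type was 1.33 CPM.

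The receptors and binders were also spread unequally over the control cell types. Tgfbr2 was highest in ECs (403 ± 1.21 CPM), followed by CHOs (148 ± 5.51 CPM), and Tgfbr3 was highest in BMSCs (964 ± 17.0 CPM) and lowest in OBs (30.8 ± 0.369 CPM). Tgfbr1 varied less, from 30.2 ± 1.94 CPM in SMCs to 121 ± 5.30 CPM in fibroblasts. Among the binders, Ltbp1 stood at 952 ± 65.4 CPM in megakaryocytes, 440 ± 13.8 in BMSCs and 302 ± 27.8 in SMCs. Ltbp2 was highest in BMSCs (248 ± 15.4 CPM) and Ltbp3 in fibroblasts (278 ± 36.7 CPM), while Ltbp4 stood at 464 ± 35.1 CPM in ECs and 302 ± 28.9 CPM in fibroblasts and at 26.5 ± 9.37 CPM or less in the other stromal types.

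**Figure D1:**
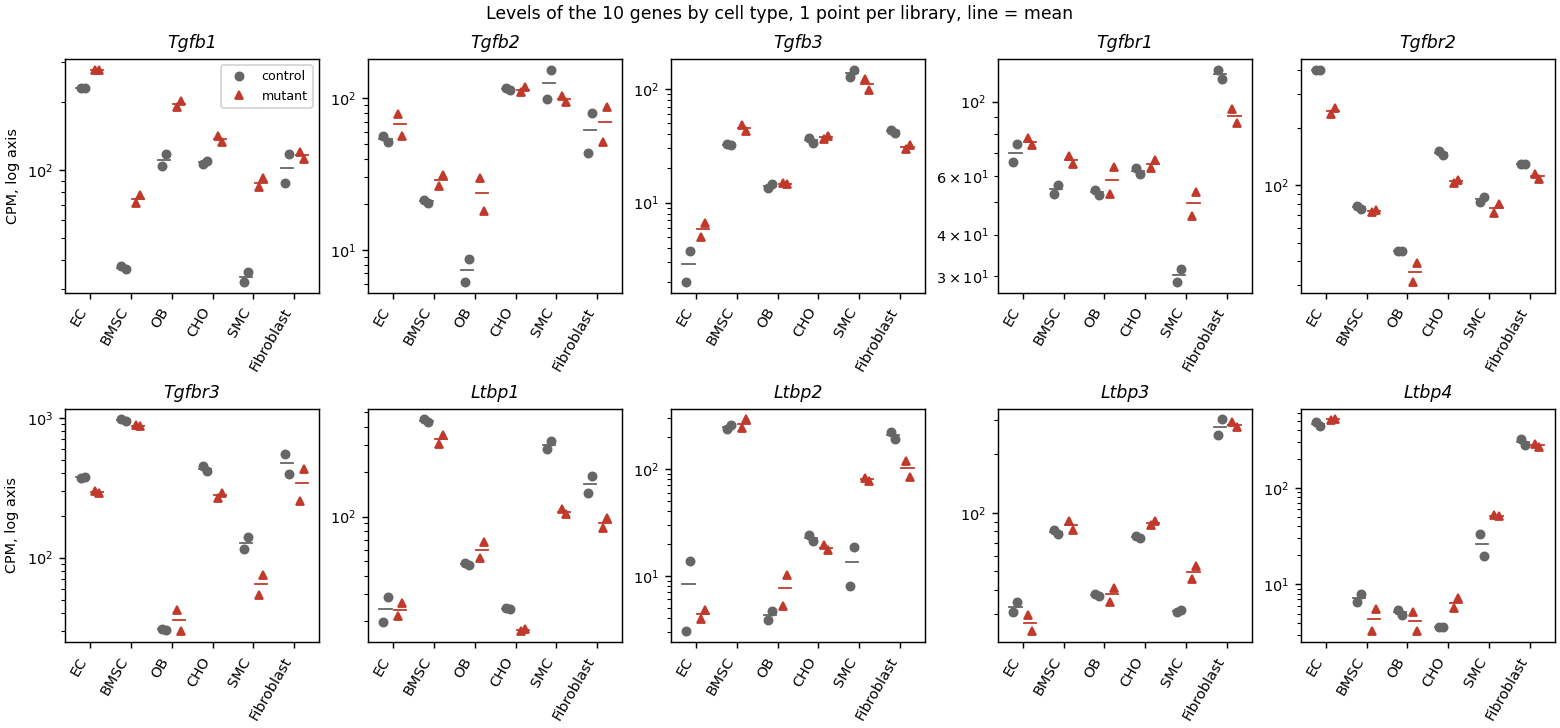
Levels of the 10 genes in the 6 stromal cell types, in CPM on a log axis, with 1 point per library and a line at the mean of each genotype. Tgfb1 of both mutants lies above both controls in ECs, BMSCs, OBs, CHOs and SMCs, and Tgfbr2 of both mutants lies below both controls in ECs.

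Between genotypes, the members changed in 29 of 60 pairs of gene and stromal type, 18 higher and 11 lower in mutants, at an edgeR adjusted p of at most 0.05. Over all genes tested in these types, 13.5% were higher and 12.2% lower. Tgfb1 rose in 5 types, Tgfb2 and Ltbp4 in 3, and Tgfb3, Tgfbr1 and Ltbp3 in 2, and none of these 6 genes fell in a main type. Tgfbr2, Tgfbr3 and Ltbp1 each fell in 3 types and rose in none, while Ltbp2 rose in 1 and fell in 2. The median log2 fold change of the members lay between −0.23 (fibroblasts) and 0.30 (SMCs), and that of all genes in these types between −0.0090 and 0.0037. Of the 29 calls, 13 held in each of the 16 alternatives of filtering, gating, scaling, testing and leaving out a library. Of the 31 pairs with no call, 14 were called in at least 1 alternative, Ltbp1 in fibroblasts in 7 and Tgfb3 in SMCs in 4.

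**Figure D2:**
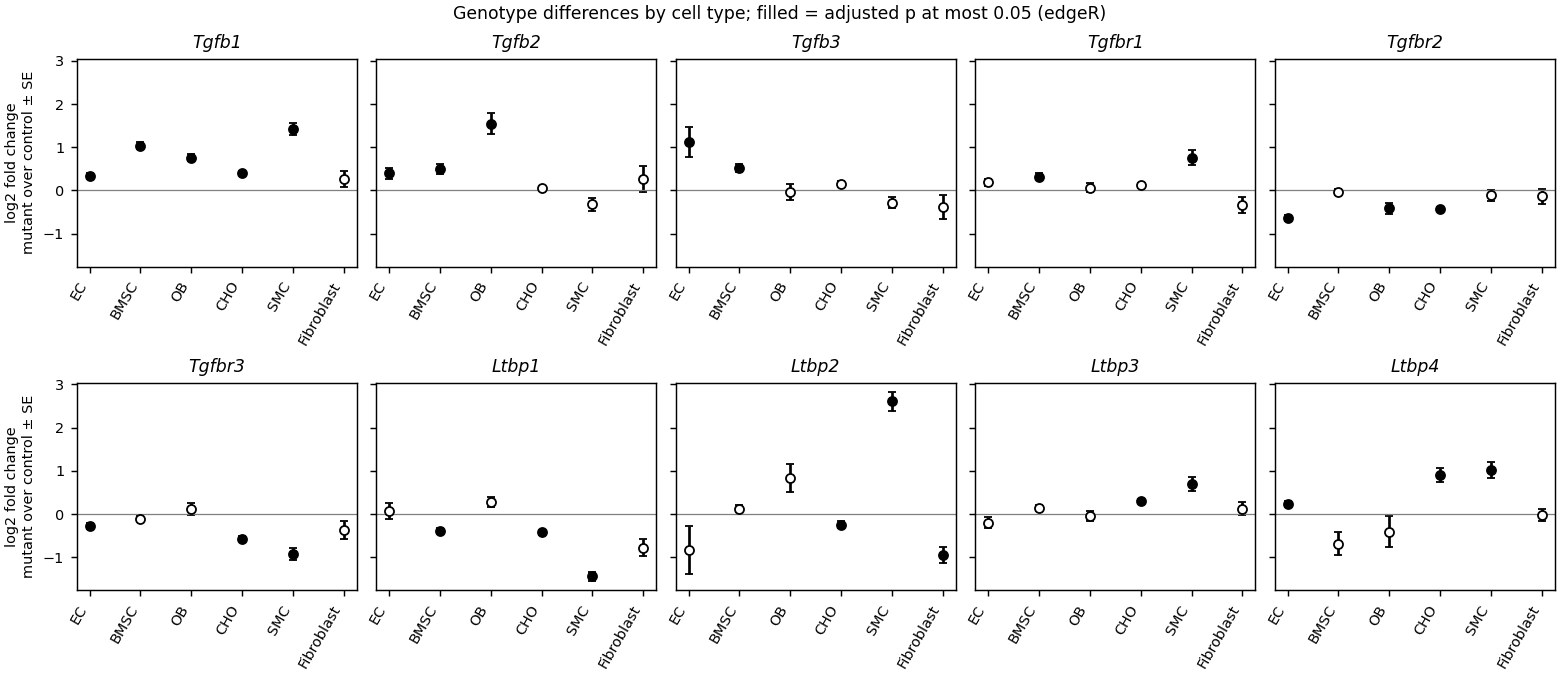
Log2 fold change of mutants over controls for the 10 genes in the 6 stromal types, with its standard error. Filled points passed an edgeR adjusted p of 0.05: Tgfb1 is filled in 5 types with values from 0.34 to 1.43, and the values of Ltbp2 run from −0.95 in fibroblasts to 2.61 in SMCs.

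Tgfb1, the ligand stored in quantity in bone matrix, rose in every stromal type but fibroblasts. In ECs, where 17.6% of all genes tested were higher and 16.5% lower, Tgfb1 stood at 276 and 277 CPM in mutants and at 231 and 231 CPM in controls (log2 fold change 0.34, standard error 0.07, edgeR adjusted p = 0.0029). In BMSCs (11.9% of genes higher and 10.6% lower) it stood at 71.9 and 77.6 CPM against 37.8 and 36.5 CPM (log2 fold change 1.04, standard error 0.08, edgeR adjusted p = 4.19e-08). The mutant libraries lay close together and above both controls in each of these types. Within ECs, Tgfb1 of both mutants was also above both controls in each of the 5 clusters, among them the Btnl9 cluster at 522 and 561 against 294 and 288 CPM, the Stmn2 cluster at 227 and 271 against 118 and 129 CPM and the Stab2 cluster at 434 and 394 against 273 and 271 CPM. Those differences were larger than that of all ECs, and the share of the Btnl9 cluster, with the highest level, was smaller in mutants. In the largest BMSC cluster, led by Hp and Kcnq3, Tgfb1 stood at 50.2 and 51.7 against 34.2 and 30.7 CPM, and in the Mmp9 cluster at 182 and 225 against 91.8 and 80.1 CPM. In OBs (6.26% higher, 3.26% lower) the values were 190 and 202 against 104 and 117 CPM (log2 fold change 0.76, standard error 0.08, edgeR adjusted p = 1.66e-05). In CHOs (22% higher, 21.6% lower) they were 142 and 134 against 107 and 110 CPM (log2 fold change 0.41, standard error 0.05, edgeR adjusted p = 6.42e-05). Again no mutant library overlapped the controls. The subclass values of Tgfb1 were 0.79 in growth plate-like, 0.19 in hypertrophic-like and −0.17 in superficial-like CHOs, and only the first was called. Over all barcodes of the Msmp cluster the libraries overlapped at 116 and 104 against 96.8 and 107 CPM. In the Rgs6, F13a1 and Serpina1a clusters both mutants were above both controls. In SMCs (14.3% higher, 13% lower) the level was 84.3 and 91.9 against 32.1 and 35.7 CPM (log2 fold change 1.43, standard error 0.14, edgeR adjusted p = 4.43e-07), and it was 0.94 without the SMC cluster of mutants (edgeR adjusted p = 0.00917). In fibroblasts, with 69 to 88 cells per library and 0.819% of genes higher and 0.534% lower, the libraries overlapped at 121 and 112 against 87.5 and 118 CPM. All 5 calls of Tgfb1 held in every alternative. Markers of megakaryocytes, the class with the highest Tgfb1 level of those ranked, summed to at most 54.0 CPM in these 5 types. In each of them the sum was lower in both mutants than in both controls. In fibroblasts that sum was at most 61.3 CPM. Leukocyte markers in ECs summed to 468 and 464 CPM in mutants and to 474 and 496 CPM in controls. In BMSCs, OBs, CHOs and SMCs they summed to at most 129 CPM in a library. The part of megakaryocytes and leukocytes in the Tgfb1 values was not tested.

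Tgfb2, a ligand that depends on betaglycan for high-affinity binding, rose in OBs, BMSCs and ECs. In OBs it stood at 29.6 and 18.1 CPM in mutants and at 6.15 and 8.70 CPM in controls (log2 fold change 1.55, standard error 0.24, edgeR adjusted p = 0.000701). Both mutant libraries lay above both controls, although a single barcode gave 15 of the 57 UMIs of mutant 1 and another 29 of the 115 UMIs of control 2. Over all barcodes of the OB cluster led by Ptprz1 and Phex, Tgfb2 stood at 307 and 109 against 33.7 and 41.7 CPM. The part of the cluster shares in the OB value was not tested. In BMSCs Tgfb2 stood at 26.4 and 31.0 CPM against 21.4 and 20.5 CPM (log2 fold change 0.49, standard error 0.11, edgeR adjusted p = 0.00471). Without mutant 2 the BMSC value was 0.37 (edgeR adjusted p = 0.104), and in the largest BMSC cluster Tgfb2 stood at 23.5 and 27.4 against 22.4 and 21.8 CPM. The smallest change was that of ECs, from 56.4 and 51.7 CPM in controls to 78.7 and 56.6 CPM in mutants (log2 fold change 0.39, standard error 0.13, edgeR adjusted p = 0.0411), and it rested on mutant 1, without which it was 0.16 (edgeR adjusted p = 0.300), and on control 2, without which it was 0.33 (edgeR adjusted p = 0.102). In CHOs, which supplied most Tgfb2 UMIs of each library (64.6% to 69.7%), the libraries overlapped at 109 and 118 against 116 and 112 CPM (log2 fold change 0.05). Without the CHO cluster of mutants Tgfb2 was higher in CHOs (0.30, edgeR adjusted p = 0.000369). With all cells the libraries also overlapped in SMCs (104 and 93.8 against 98.8 and 154 CPM) and in fibroblasts (51.8 and 87.6 against 43.7 and 80.0 CPM). The SMC value was −0.32 (edgeR adjusted p = 0.130), and −0.61 without control 1.

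Tgfb3 rose in BMSCs, from 32.7 and 32.1 CPM in controls to 48.3 and 42.8 CPM in mutants (log2 fold change 0.51, standard error 0.10, edgeR adjusted p = 0.0007). Both mutants were higher than both controls there, also in the largest BMSC cluster alone (33.1 and 34.8 against 23.6 and 23.9 CPM). In ECs it stood at 4.97 and 6.67 CPM against 2.01 and 3.74 CPM (log2 fold change 1.12, standard error 0.36, edgeR adjusted p = 0.0339), on 12 to 43 UMIs per library. Markers of SMCs, the type with the most Tgfb3, summed in ECs to 475 and 591 CPM in mutants and to 336 and 355 CPM in controls. Of these 8 markers, 2 were higher and 1 lower in both mutants, and their part in the EC value was not tested. The EC call was lost without mutant 2 (0.89, edgeR adjusted p = 0.136) and without control 1 (0.73, edgeR adjusted p = 0.202). In the types with more Tgfb3 there was no call with all cells and libraries: SMCs had 123 and 97.4 against 128 and 148 CPM, CHOs 36.6 and 38.4 against 36.9 and 33.6 CPM, and fibroblasts 29.5 and 32.1 against 43.7 and 41.3 CPM. OBs overlapped at 14.8 and 14.5 against 13.5 and 14.6 CPM. In SMCs the value was −0.28 (edgeR adjusted p = 0.103), and 4 of 16 alternatives gave a call (−0.45 to −0.31). In CHOs it was 0.15 (edgeR adjusted p = 0.0626), and 2 alternatives gave a call (0.18 and 0.20).

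The type I receptor Tgfbr1 changed in BMSCs and SMCs. In BMSCs it stood at 68.7 and 65.0 CPM in mutants and at 52.8 and 56.5 CPM in controls (log2 fold change 0.32, standard error 0.08, edgeR adjusted p = 0.00834). Without mutant 1 the value was 0.27 (edgeR adjusted p = 0.0514), and without control 1 it was 0.27 (edgeR adjusted p = 0.0794). In SMCs the values were 45.6 and 53.7 against 28.9 and 31.6 CPM (log2 fold change 0.76, standard error 0.17, edgeR adjusted p = 0.00189), and the call was lost without the SMC cluster of mutants (0.56, edgeR adjusted p = 0.116). In ECs, OBs and CHOs mutants and controls overlapped, with log2 fold changes of 0.19, 0.07 and 0.13. The CHO value was called in 3 of 16 alternatives, among them that without the CHO cluster of mutants (0.27, edgeR adjusted p = 0.00126), and the EC value in 2 (0.23 and 0.28).

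Tgfbr2, the type II receptor that binds the ligand first, fell in the 2 types with the most of it. In ECs it stood at 235 and 254 CPM in mutants and at 404 and 402 CPM in controls (log2 fold change −0.63, standard error 0.07, edgeR adjusted p = 0.000113). Within ECs it was lower in both mutants in the Btnl9 cluster (340 and 422 against 525 and 582 CPM), the Stmn2 cluster (279 and 320 against 481 and 458 CPM) and the Stab2 cluster (231 and 226 against 266 and 242 CPM). It stood at 215 and 236 against 231 and 249 CPM in the Apln cluster and at 146 and 138 against 142 and 140 CPM in the Vwf cluster, where the genotypes overlapped. In CHOs it stood at 102 and 107 CPM against 152 and 144 CPM (log2 fold change −0.44, standard error 0.05, edgeR adjusted p = 1.78e-05). Both falls held in every alternative, and in CHOs the value without the CHO cluster of mutants was −0.23 (edgeR adjusted p = 0.00193). In OBs it stood at 31.1 and 39.1 CPM against 45.1 and 45.3 CPM (log2 fold change −0.41, standard error 0.12, edgeR adjusted p = 0.0473). That call was lost in 11 of 16 alternatives: it was −0.29 without mutant 1 (edgeR adjusted p = 0.238), −0.41 without control 1 (edgeR adjusted p = 0.186) and −0.42 without control 2 (edgeR adjusted p = 0.177). BMSCs had 72.8 and 74.5 against 77.7 and 75.5 CPM, and SMCs 71.3 and 79.9 against 81.7 and 87.2 CPM, with no call in either.

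Tgfbr3, the coreceptor betaglycan, fell in CHOs, SMCs and ECs. In CHOs it stood at 267 and 291 CPM in mutants and at 449 and 414 CPM in controls (log2 fold change −0.57, standard error 0.05, edgeR adjusted p = 7.09e-06). In ECs it stood at 299 and 289 CPM against 373 and 380 CPM (log2 fold change −0.28, standard error 0.06, edgeR adjusted p = 0.00766). In both types the 2 mutants lay below the 2 controls, and both calls held in every alternative, with −0.38 in CHOs without the CHO cluster of mutants. The EC subclass values of Tgfbr3 were −0.38 in sinusoidal-like, 0.26 in arterial-like and 0.09 in metaphyseal-like ECs, and only the first was called. The part of the EC cluster shares in the EC value was not tested. In SMCs the values were 54.3 and 75.4 against 115 and 140 CPM (log2 fold change −0.93, standard error 0.14, edgeR adjusted p = 7.58e-05). Without the SMC cluster of mutants the SMC value was −0.44 (edgeR adjusted p = 0.14). In BMSCs, where its level was highest, mutants had 893 and 868 CPM and controls 976 and 952 CPM (log2 fold change −0.10, edgeR adjusted p = 0.163). With types taken from the Leiden clusters in place of the marker gate, the BMSC value was −0.50 (edgeR adjusted p = 3.15e-07). Fibroblasts overlapped at 256 and 429 against 555 and 395 CPM.

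Ltbp1, which ties latent TGF-β to the matrix, fell in SMCs, CHOs and BMSCs. In SMCs it stood at 112 and 104 CPM in mutants and at 282 and 321 CPM in controls (log2 fold change −1.44, standard error 0.10, edgeR adjusted p = 6.88e-09), and the fall was −0.47 without the SMC cluster of mutants (edgeR adjusted p = 0.0157). In BMSCs it stood at 308 and 353 CPM against 450 and 430 CPM (log2 fold change −0.38, standard error 0.06, edgeR adjusted p = 0.000241). In CHOs it stood at 16.9 and 17.4 CPM against 24.1 and 23.9 CPM (log2 fold change −0.43, standard error 0.07, edgeR adjusted p = 0.000375). In none of the 3 types did a mutant library reach a control. OBs had 52.4 and 67.6 against 49.0 and 47.2 CPM with no call, and ECs overlapped at 21.3 and 26.1 against 19.6 and 28.7 CPM. Fibroblasts had 83.4 and 97.4 against 143 and 186 CPM (log2 fold change −0.78, standard error 0.19, edgeR adjusted p = 0.0694), and 7 of 16 alternatives gave a call (−0.96 to −0.63). Over all kept barcodes of a library Ltbp1 was at 57.1 and 63.1 CPM in mutants and at 137 and 126 CPM in controls, and BMSCs gave 36.9% and 41.2% of its UMIs in mutants against 66.4% and 66.2% in controls. Fewer BMSCs and less Ltbp1 per BMSC both enter that whole-library level.

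Ltbp2, a binder of fibrillin that does not bind latent TGF-β itself, differed in direction between types. In SMCs it stood at 82.5 and 77.3 CPM in mutants and at 7.98 and 18.7 CPM in controls (log2 fold change 2.61, standard error 0.22, edgeR adjusted p = 5.14e-08). Controls held 13 and 32 UMIs, 15 of the 32 in 1 barcode, and without the SMC cluster of mutants the value was 1.49 (edgeR adjusted p = 0.0891). In fibroblasts it stood at 118 and 83.9 CPM against 223 and 191 CPM (log2 fold change −0.95, standard error 0.19, edgeR adjusted p = 0.0217). There 1 barcode gave 34 of the 82 UMIs of mutant 1, and single barcodes gave 52 UMIs in each control. In CHOs it stood at 19.3 and 17.3 CPM against 24.0 and 21.3 CPM (log2 fold change −0.25, standard error 0.08, edgeR adjusted p = 0.0292). That call was lost without mutant 2 (−0.16, edgeR adjusted p = 0.199) and without control 1 (−0.18, edgeR adjusted p = 0.132), and the value was 0.01 without the CHO cluster of mutants. In BMSCs, where Ltbp2 was highest, the libraries overlapped at 239 and 290 against 237 and 259 CPM. In ECs the value of control 2, 13.6 CPM against 3.01 to 4.81 CPM in the other 3 libraries, came mainly from 1 barcode with 54 of the 80 UMIs. The EC log2 fold change was −0.83 (edgeR adjusted p = 0.277), and −1.56 to −0.87 in the 3 of 16 alternatives that gave a call. In OBs it was 0.83 (edgeR adjusted p = 0.129), with 10 of the 28 UMIs of mutant 2 in 1 barcode. The OB value was 2.00 with doublets left out (edgeR adjusted p = 0.00349) and 1.44 with free RNA subtracted (edgeR adjusted p = 0.0459).

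Ltbp3, which assists the secretion of latent TGF-β in bone and cartilage, rose in CHOs and SMCs. In CHOs it stood at 86.9 and 90.7 CPM in mutants and at 76.1 and 74.0 CPM in controls (log2 fold change 0.30, standard error 0.05, edgeR adjusted p = 0.000327). The CHO call held in every alternative, with 0.16 without the CHO cluster of mutants (edgeR adjusted p = 0.0222). Over all barcodes of the Msmp cluster Ltbp3 stood at 111 and 113 against 157 and 156 CPM. In the Rgs6 cluster it stood at 71.4 and 63.7 against 82.4 and 80.8 CPM, and in the F13a1 and Serpina1a clusters the libraries overlapped. The subclass values of Ltbp3 were 1.01 in hypertrophic-like, 0.09 in growth plate-like and −0.38 in superficial-like CHOs. In SMCs it stood at 45.2 and 53.1 CPM against 30.7 and 31.6 CPM (log2 fold change 0.71, standard error 0.16, edgeR adjusted p = 0.00309), and it was 0.06 without the SMC cluster of mutants (edgeR adjusted p = 0.912). In fibroblasts, its highest type, the libraries overlapped at 293 and 276 against 252 and 304 CPM.

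Ltbp4, a binder needed for elastic fibre assembly, rose in SMCs, CHOs and ECs. In SMCs it stood at 52.5 and 51.1 CPM in mutants and at 33.2 and 19.9 CPM in controls (log2 fold change 1.02, standard error 0.19, edgeR adjusted p = 0.000447), and 1.15 without the SMC cluster of mutants (edgeR adjusted p = 0.0254). In CHOs it was low in both genotypes, at 5.65 and 7.25 CPM against 3.58 and 3.63 CPM (log2 fold change 0.90, standard error 0.16, edgeR adjusted p = 0.00095). Both mutants exceeded both controls in these types. Over all barcodes of the Msmp cluster of CHOs it stood at 12.2 and 13.4 against 14.8 and 13.9 CPM. In the Rgs6 cluster it stood at 1.91 and 2.22 against 2.80 and 4.37 CPM, and in the F13a1 and Serpina1a clusters the libraries overlapped. The subclass values of Ltbp4 were 1.28 in hypertrophic-like, 1.37 in growth plate-like and 0.47 in superficial-like CHOs, and only the first was called. In ECs it stood at 511 and 515 CPM against 488 and 439 CPM (log2 fold change 0.23, standard error 0.07, edgeR adjusted p = 0.0261). Without mutant 2 the EC value was 0.21 (edgeR adjusted p = 0.0734), and without control 2 it was 0.15 (edgeR adjusted p = 0.137). In none of the 5 EC clusters was Ltbp4 of both mutants above both controls: the Stmn2 cluster had 1022 and 1013 against 1204 and 1053 CPM, the Vwf cluster 683 and 701 against 877 and 815 CPM and the Apln cluster 172 and 157 against 513 and 584 CPM. The higher level was that of all ECs together. Their shares of these clusters differed, and the part of these shares in the level was not tested. Fibroblasts overlapped at 288 and 269 against 322 and 281 CPM.

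Within the ECs, 3 subclasses were compared by the same markers and test: arterial-like (176 and 201 cells in mutants, 233 and 226 in controls), sinusoidal-like (87 and 91 against 258 and 257) and metaphyseal-like ECs (108 and 134 against 126 and 119). Over the subclasses of all types, 6 pairs of member and subclass were below the filter on low counts (Ltbp2 in each EC subclass, Tgfb3 in arterial-like and metaphyseal-like ECs, Tgfb2 in sinusoidal-like ECs) and 94 pairs were tested, of which 19 were higher and 22 lower in mutants, where all genes gave 9.58% and 8.15%. In arterial-like ECs (8.32% of genes higher, 6.57% lower) Tgfb1 stood at 236 and 267 CPM in mutants and at 127 and 130 CPM in controls (log2 fold change 1.07, standard error 0.12, edgeR adjusted p = 4.68e-05). In sinusoidal-like ECs (6.49% higher, 4.52% lower) it stood at 388 and 353 against 290 and 266 CPM (log2 fold change 0.49, standard error 0.12, edgeR adjusted p = 0.0263), a call lost without control 1 (0.54, edgeR adjusted p = 0.0773) and without control 2 (0.42, edgeR adjusted p = 0.152). In metaphyseal-like ECs (9.85% higher, 9.59% lower) the libraries overlapped at 331 and 313 against 335 and 271 CPM. The markers of metaphyseal-like ECs include Apln, which leads an EC cluster with a larger share in mutants, and no alternative left Apln out. Metaphyseal-like ECs lay mostly in different clusters in the 2 genotypes: the Apln cluster held 52.8% and 63.4% of them in mutants and 11.1% and 8.40% in controls, and the Btnl9 cluster 28.7% and 20.9% against 79.4% and 79.0%. In their Btnl9 cluster cells Tgfb1 stood at 568 and 545 against 356 and 280 CPM, and in their Apln cluster cells at 253 and 239 against 222 and 71.8 CPM, so both mutants were higher in each. The control level was lowest in arterial-like ECs, the subclass with the largest log2 fold change of the 3.

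Tgfb2 changed in opposite directions in the EC subclasses. In metaphyseal-like ECs it stood at 73.7 and 84.7 CPM in mutants and at 20.2 and 14.2 CPM in controls (log2 fold change 2.27, standard error 0.24, edgeR adjusted p = 0.000106). This rise held in every alternative, although 13 of the 23 UMIs of control 1 and 28 of the 104 of mutant 1 came from single barcodes. By cluster, metaphyseal-like ECs of the Btnl9 cluster had 28.7 and 27.6 against 10.3 and 12.7 CPM, on 10 to 12 UMIs per library. Those of the Apln cluster had 115 and 117 CPM in mutants and 107 and 0 CPM in controls, the latter on 14 and 10 cells. Over all ECs of the Btnl9 cluster Tgfb2 overlapped, at 41.5 and 29.8 against 39.5 and 39.4 CPM. In arterial-like ECs it stood at 135 and 80.8 CPM against 195 and 176 CPM (log2 fold change −0.70, standard error 0.18, edgeR adjusted p = 0.0191). The arterial fall was lost without mutant 2 (−0.37, edgeR adjusted p = 0.166) and without control 1 (−0.63, edgeR adjusted p = 0.057). Sinusoidal-like ECs held 3 to 10 Tgfb2 UMIs per library and were below the filter. The difference between the subclasses was not itself tested.

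Tgfbr2 fell in arterial-like ECs from 577 and 590 CPM in controls to 279 and 310 CPM in mutants (log2 fold change −0.89, standard error 0.10, edgeR adjusted p = 4.4e-05). In metaphyseal-like ECs it fell from 421 and 437 CPM to 193 and 220 CPM (log2 fold change −0.97, standard error 0.12, edgeR adjusted p = 0.00045). Both falls held in every alternative, and no mutant library came near a control. In metaphyseal-like ECs of the Btnl9 cluster it stood at 253 and 354 against 461 and 510 CPM, while in those of the Apln cluster, to which most such cells of mutants belonged, it stood at 176 and 183 against 157 and 108 CPM. In sinusoidal-like ECs it stood at 225 and 216 against 287 and 264 CPM (log2 fold change −0.24, standard error 0.12, edgeR adjusted p = 0.241). Tgfbr3, by contrast, passed, of the EC subclasses, only in sinusoidal-like ECs, at 419 and 405 against 545 and 587 CPM (log2 fold change −0.38, standard error 0.11, edgeR adjusted p = 0.0427), a call lost without control 1 (−0.45, edgeR adjusted p = 0.0946) and without control 2 (−0.33, edgeR adjusted p = 0.227). The log2 fold change of Tgfbr3 was 0.26 in arterial-like (edgeR adjusted p = 0.258) and 0.09 in metaphyseal-like ECs (edgeR adjusted p = 0.678). Whether these effects differ between subclasses was not tested.

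Ltbp4 was highest in arterial-like ECs, at 990 and 1017 CPM in mutants and 1116 and 1018 CPM in controls (log2 fold change 0.01, edgeR adjusted p = 0.977). In sinusoidal-like ECs it rose from 102 and 99.5 CPM to 153 and 226 CPM (log2 fold change 1.00, standard error 0.18, edgeR adjusted p = 0.0083), and under the stricter marker gate the value was −0.63 with no call. In the Stab2 cluster, which held 64.4% to 81.7% of sinusoidal-like ECs, it was lower in mutants (32.3 and 19.1 against 63.1 and 57.4 CPM), and the Vwf cluster, with 1043 to 1476 CPM, held 18.4% and 24.2% of these cells in mutants against 3.49% and 4.28% in controls. Metaphyseal-like ECs had 272 and 224 against 317 and 342 CPM (log2 fold change −0.33, edgeR adjusted p = 0.0993). Tgfb3 in sinusoidal-like ECs stood at 10.5 and 15.8 against 1.55 and 3.45 CPM on 3 to 13 UMIs per library (log2 fold change 2.43, standard error 0.54, edgeR adjusted p = 0.0191). Its call was lost without mutant 2 (2.07, edgeR adjusted p = 0.142), without control 1 (1.97, edgeR adjusted p = 0.353) and without control 2 (3.08, edgeR adjusted p = 0.134).

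**Figure D3:**
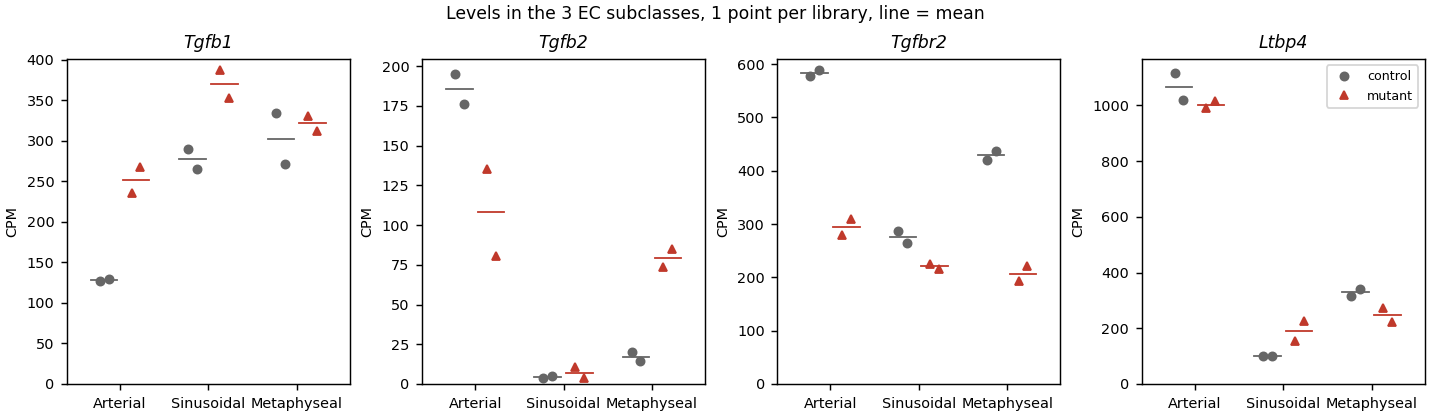
Levels of Tgfb1, Tgfb2, Tgfbr2 and Ltbp4 in the 3 EC subclasses, in CPM from 0, with 1 point per library and the mean of each genotype. Tgfb2 of mutants lies above controls in metaphyseal-like ECs (73.7 and 84.7 against 20.2 and 14.2 CPM) and below them in arterial-like ECs (135 and 80.8 against 195 and 176 CPM).

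Most BMSCs were of the adipo-CAR-like subclass, and 7 of the 10 members changed there, 4 higher and 3 lower (all genes 11.8% and 10.2%). Tgfb1 stood at 60.3 and 73.3 CPM in mutants and at 35.2 and 32.9 CPM in controls (log2 fold change 1.02, standard error 0.10, edgeR adjusted p = 1.52e-06). Tgfb3 stood at 42.8 and 40.01 CPM against 26.1 and 25.1 CPM (log2 fold change 0.72, standard error 0.11, edgeR adjusted p = 0.000119). Tgfbr1 stood at 65.5 and 64.9 CPM against 46.6 and 52.3 CPM (log2 fold change 0.43, standard error 0.09, edgeR adjusted p = 0.00207). These 3 rises and the fall of Ltbp1, from 465 and 452 CPM to 310 and 341 CPM (log2 fold change −0.46, standard error 0.06, edgeR adjusted p = 2.45e-05), held in every alternative. The Mmp9 cluster held 49 and 52 of these cells in mutants and 1 in each control, and in the largest cluster alone Tgfb1 stood at 50.4 and 50.3 against 34.1 and 30.8 CPM, Tgfb3 at 32.5 and 35.0 against 23.4 and 23.9 CPM and Ltbp1 at 349 and 384 against 493 and 470 CPM. In osteo-CAR-like BMSCs, with 43 and 45 cells in mutants against 277 and 276 in controls, no member was called and all genes gave 0.686% higher and 0.442% lower, and the value of Tgfb1 was 0.84 (standard error 0.33, edgeR adjusted p = 0.299). Without mutant 2, Tgfb1 (1.44, edgeR adjusted p = 5.9e-06) and Tgfb3 (0.85, edgeR adjusted p = 0.0429) were called there, but both values rested on mutant 1. Without mutant 1 they were −0.45 (edgeR adjusted p = 0.746) and −0.14 (edgeR adjusted p = 0.933).

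The CHO subclasses were each compared between the genotypes, and whether the effects differ between them was not tested. In growth plate-like CHOs (14.2% of genes higher, 10.8% lower) Tgfb1 stood at 90.2 and 101 CPM in mutants and at 59.4 and 59.9 CPM in controls (log2 fold change 0.79, standard error 0.08, edgeR adjusted p = 1.4e-05), and Tgfb2 at 160 and 172 against 113 and 121 CPM (log2 fold change 0.62, standard error 0.08, edgeR adjusted p = 5.28e-05). In superficial-like CHOs (3.69% higher, 2.43% lower) Tgfb2 stood at 57.0 and 62.9 against 34.4 and 38.9 CPM (log2 fold change 0.74, standard error 0.11, edgeR adjusted p = 0.00319), and Tgfb1 at 171 and 151 against 192 and 179 CPM with no call. Both ligand rises in growth plate-like CHOs were seen in both mutants. In hypertrophic-like CHOs (20.8% higher, 19.6% lower) Tgfb2 fell from 117 and 134 CPM to 91.8 and 100 CPM (log2 fold change −0.37, standard error 0.09, edgeR adjusted p = 0.00645), a call lost without mutant 1 (−0.30, edgeR adjusted p = 0.146) and without mutant 2 (−0.41, edgeR adjusted p = 0.07). Without the CHO cluster of mutants, Tgfb2 was instead higher in hypertrophic-like CHOs (0.42, edgeR adjusted p = 0.0119).

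Receptor and binder genes of the CHO subclasses depended on that cluster in part. Tgfbr3 fell in growth plate-like CHOs from 498 and 467 CPM to 268 and 307 CPM (log2 fold change −0.63, standard error 0.07, edgeR adjusted p = 4.28e-05) and in hypertrophic-like CHOs from 240 and 217 CPM to 128 and 133 CPM (log2 fold change −0.79, standard error 0.07, edgeR adjusted p = 1e-05), and both calls held in every alternative. Tgfbr2 in hypertrophic-like CHOs stood at 52.0 and 50.6 against 80.3 and 78.7 CPM (log2 fold change −0.61, standard error 0.07, edgeR adjusted p = 0.000109) and at −0.20 without the cluster (edgeR adjusted p = 0.126). Ltbp3 in hypertrophic-like CHOs stood at 83.6 and 81.7 against 44.7 and 38.3 CPM (log2 fold change 1.01, standard error 0.09, edgeR adjusted p = 8.77e-06) and at 0.15 without the cluster (edgeR adjusted p = 0.375). The mutants were far from the controls in both genes until the cluster, with its 1636 barcodes, was left out, which left 255 and 259 of the 729 and 711 hypertrophic-like cells of mutants. In superficial-like CHOs Ltbp2 fell from 104 and 90.7 CPM to 56.0 and 43.0 CPM (log2 fold change −0.94, standard error 0.12, edgeR adjusted p = 0.00201).

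Pericyte-like cells numbered 231 and 226 in mutants and 72 and 77 in controls, and 4 members were higher and 2 lower there (all genes 11.2% and 10.8%). Ltbp2 stood at 123 and 93.2 CPM in mutants and at 16.1 and 11.1 CPM in controls, on 5 and 7 control UMIs (log2 fold change 3.13, standard error 0.32, edgeR adjusted p = 4.76e-07). Tgfb1 stood at 105 and 103 against 36.9 and 31.1 CPM (log2 fold change 1.77, standard error 0.23, edgeR adjusted p = 1.05e-05). Without the SMC cluster of mutants, 62 and 53 pericyte-like cells were left in mutants, the rise of Tgfb1 was 1.15 (edgeR adjusted p = 0.0454) and that of Ltbp2 1.97 (edgeR adjusted p = 0.0511). The call of Ltbp2 was thus lost, and so were the other 4 in pericyte-like cells. The values of these 4 were 0.08 for Ltbp3 and, with turned directions, −0.13 for Tgfb3, 0.17 for Tgfbr3 and 0.87 for Ltbp1. In contractile-like SMCs (3.07% of genes higher, 1.6% lower) Ltbp1 alone of the members passed, at 298 and 277 against 394 and 448 CPM (log2 fold change −0.50, standard error 0.12, edgeR adjusted p = 0.0339). That call was lost without mutant 2 (−0.44, edgeR adjusted p = 0.07) and without control 2 (−0.39, edgeR adjusted p = 0.142).

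**Figure D4:**
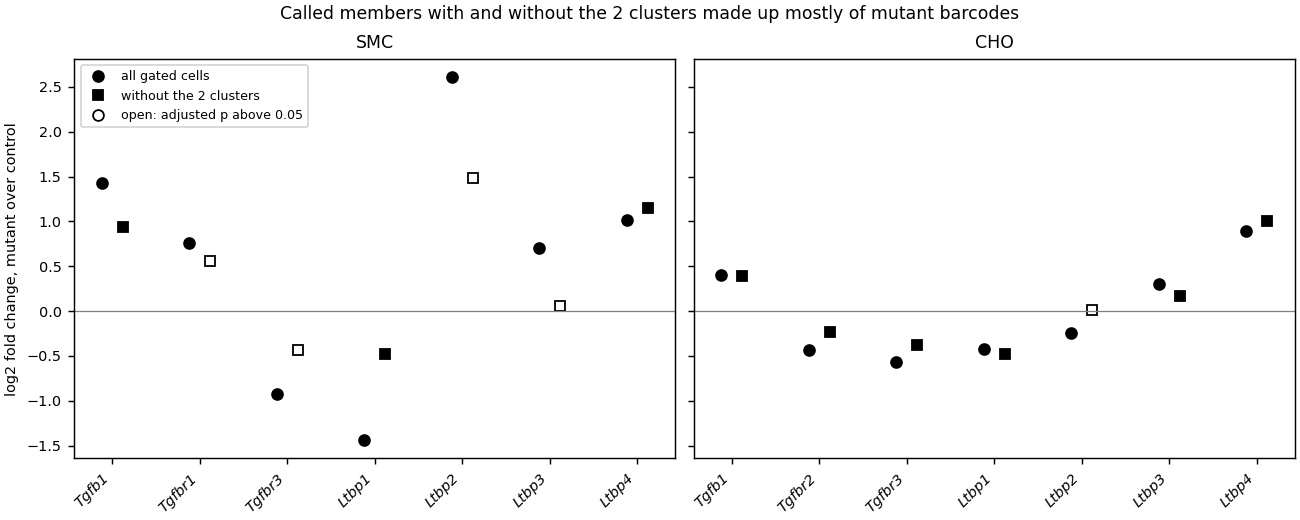
Log2 fold change of the members called in SMCs and CHOs, with all cells and without the 2 clusters that came almost wholly from mutants. In SMCs the value of Ltbp3 moves from 0.71 to 0.06 and that of Ltbp1 from −1.44 to −0.47, while Tgfb1 stays higher in mutants at 0.94.

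The effect of the genotype in each type was set against its mean effect in the other 5 types in 1 fit, and 19 of 60 such differences passed an edgeR adjusted p of 0.05 (all genes 6.51%). SMCs gave 9 (all genes 8.32%), ECs 5 (10.9%), OBs 2 (4.16%), CHOs 2 (13.1%), BMSCs 1 (2.17%) and fibroblasts 0 (0.454%). The rise of Tgfb1 was smaller in ECs than in the other types by 0.46 on the log2 scale (edgeR adjusted p = 0.000197), and the fall of Tgfbr2 was larger there by 0.43 (edgeR adjusted p = 7.79e-05). In SMCs the difference was 2.83 for Ltbp2 (edgeR adjusted p = 2.34e-05), −1.19 for Ltbp1 (edgeR adjusted p = 6.71e-07) and 0.87 for Tgfb1 (edgeR adjusted p = 0.000329). In OBs it was 1.32 for Tgfb2 (edgeR adjusted p = 0.0313), which without mutant 1 missed the threshold (edgeR adjusted p = 0.326). Without mutant 2 the count was 9 and without control 1 it was 11. Without the 2 clusters it was 7, all among the 19: Tgfb1, Tgfbr2 and Tgfb3 in ECs, Tgfb1 in BMSCs, Ltbp1 in OBs, and Ltbp4 in CHOs and in SMCs. Of the 9 differences in SMCs only that of Ltbp4 remained (1.16, edgeR adjusted p = 0.0341), while those of Ltbp2 (1.70, edgeR adjusted p = 0.225), Ltbp1 (−0.19, edgeR adjusted p = 0.703) and Tgfb1 (0.42, edgeR adjusted p = 0.459) lost the call. The larger fall of Tgfbr2 in ECs remained at −0.44 (edgeR adjusted p = 9.35e-05) and the smaller rise of Tgfb1 at −0.35 (edgeR adjusted p = 0.00952). Of the 19, that of Tgfbr2 in ECs passed in each alternative run for these differences. The difference of Tgfb1 in ECs was lost without control 1 (edgeR adjusted p = 0.0849), and that of Ltbp4 in SMCs without control 2 (edgeR adjusted p = 0.15) and with free RNA subtracted (edgeR adjusted p = 0.0901). That of Tgfb1 in BMSCs was lost without any 1 library (edgeR adjusted p of 0.129 to 0.65). The differences of Ltbp4 in CHOs and Tgfb3 in ECs were lost without mutant 2 and without control 1, and that of Ltbp1 in OBs without mutant 2. These comparisons are of whole types, in which the clusters of ECs, BMSCs, OBs and CHOs had unequal shares.

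The other genes of the pathway were followed in 5 lists, in 241 pairs of gene and type, of which 97 were higher, 33 lower and 111 not called, where all genes of these types gave 13.5% higher and 12.2% lower. The lists were chosen with earlier results of these data known, so their counts are no independent comparison with these shares. The genes of latency and activation (integrins, proteases, Thbs1) gave 35 higher and 4 lower of 67, matrix partners of the latent complex 17 and 10 of 48, coreceptors and further receptors 5 and 4 of 30, Smads and their regulators 17 and 13 of 60, and response genes 23 and 2 of 36. In SMCs, 20 of 40 tested genes were higher with all cells (all genes 14.3%), and without the SMC cluster of mutants 2 of 35 were (all genes 5.28%), both in the Smad list. In the other types the counts without both clusters differed by at most 2 calls in a list. Of the 72 calls of the most changed genes of each list and type, 38 held in each of 9 alternatives. Of those given below, the call of Nox4 in BMSCs was lost, among the 9, without mutant 2, without control 1 and with DESeq2. That of Smurf2 in fibroblasts was lost with DESeq2. Nox4 in SMCs held in 5 of the 9, and without the SMC cluster of mutants its edgeR adjusted p was 0.149. Under further alternatives, Nox4 in BMSCs was not called with the stricter marker gate or with either other filter on low counts. Postn in OBs was not called with the stricter marker gate.

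In ECs the largest changes were in genes of latency and response. Nox4, an oxidase, stood at 195 and 178 CPM in mutants and at 14.4 and 13.95 CPM in controls (log2 fold change 3.80, standard error 0.09, edgeR adjusted p = 3.99e-08). Thbs1, whose product activates latent TGF-β, stood at 430 and 276 CPM against 46.6 and 42.4 CPM (log2 fold change 3.06, standard error 0.18, edgeR adjusted p = 2.04e-06). In both genes each mutant library lay several times above each control. Ccn2, a matricellular gene, stood at 393 and 373 CPM against 76.4 and 105 CPM (log2 fold change 2.16), and Fn1, which holds the latent complex in matrix, at 1034 and 764 CPM against 180 and 360 CPM (log2 fold change 1.81). Of the Smads, Smad3 fell from 88.9 and 93.6 CPM to 59.2 and 57.2 CPM (log2 fold change −0.57, edgeR adjusted p = 0.000306) and Smad4 from 106 and 104 CPM to 77.9 and 73.2 CPM (log2 fold change −0.39, edgeR adjusted p = 0.00245). The corepressor gene Tgif1 rose by 1.09 and the coreceptor gene Cd109 by 1.05. Ccn2 is also known as a target of YAP1 and TAZ.

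In BMSCs the 5 response genes described here (Ccn2, Tgfbi, Pmepa1, Nox4 and Postn) were all higher (all genes 11.9%), with log2 fold changes of 0.73 for Ccn2 (edgeR adjusted p = 3.74e-05) and 0.70 for Nox4 (edgeR adjusted p = 0.0213). Over the 16 alternatives 0 to 5 of the 5 were called, with 0 where low counts were not filtered, 2 without control 1 (Ccn2 and Postn) and 3 without mutant 2 or without control 2. Of the latency genes, Mmp9, a gelatinase, stood at 833 and 457 CPM against 63.3 and 115 CPM (log2 fold change 2.88, edgeR adjusted p = 4.19e-08). In BMSCs of the Mmp9 cluster alone, a larger share of BMSCs in mutants, Mmp9 overlapped at 4948 and 3026 against 3254 and 6261 CPM. Another latency gene, Itgb6, stood at 8.18 and 9.05 against 1.22 and 1.91 CPM (log2 fold change 2.48). The median of the Smad list in BMSCs was −0.04 although 4 genes were higher and 2 lower. In OBs 4 of these 5 were higher (all genes 6.26%), and 1 to 4 of them in the 16 alternatives. Of the 4, Nox4 was low there, at 7.78 and 2.53 against 0.574 and 0.303 CPM. Tgfbi was also low, at 5.19 and 9.04 against 1.07 and 3.33 CPM. Among the 9 alternatives of the lists, the OB call of Nox4 held in 7 and that of Tgfbi in 5. Postn stood there at 119 and 156 against 47.5 and 47.1 CPM (log2 fold change 1.49). Fmod, a proteoglycan that binds TGF-β, stood in OBs at 125 and 121 against 30.1 and 27.5 CPM (log2 fold change 2.02, edgeR adjusted p = 4.11e-09). Smad7, the inhibitory Smad, was higher in BMSCs (0.32), OBs (0.77) and CHOs (0.93).

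In CHOs, Bmp1, a protease that cleaves latent binding proteins, fell from 108 and 109 CPM to 56.9 and 55.2 CPM (log2 fold change −0.89, edgeR adjusted p = 6.87e-08). Fn1 fell there from 7178 and 6926 CPM to 4586 and 4608 CPM (log2 fold change −0.56), opposite in sign to ECs. Bambi, a pseudoreceptor, rose in CHOs to 136 and 136 CPM from 70.3 and 85.4 CPM (log2 fold change 0.86). In fibroblasts no gene of the lists was higher, where all genes gave 0.819%. Nox4 stood there at 163 and 158 against 312 and 343 CPM (log2 fold change −0.94, edgeR adjusted p = 0.00587) and Smurf2, a ubiquitin ligase of the receptors, at 76.2 and 98.7 against 183 and 188 CPM (log2 fold change −0.99, edgeR adjusted p = 0.0121).

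**Figure D5:**
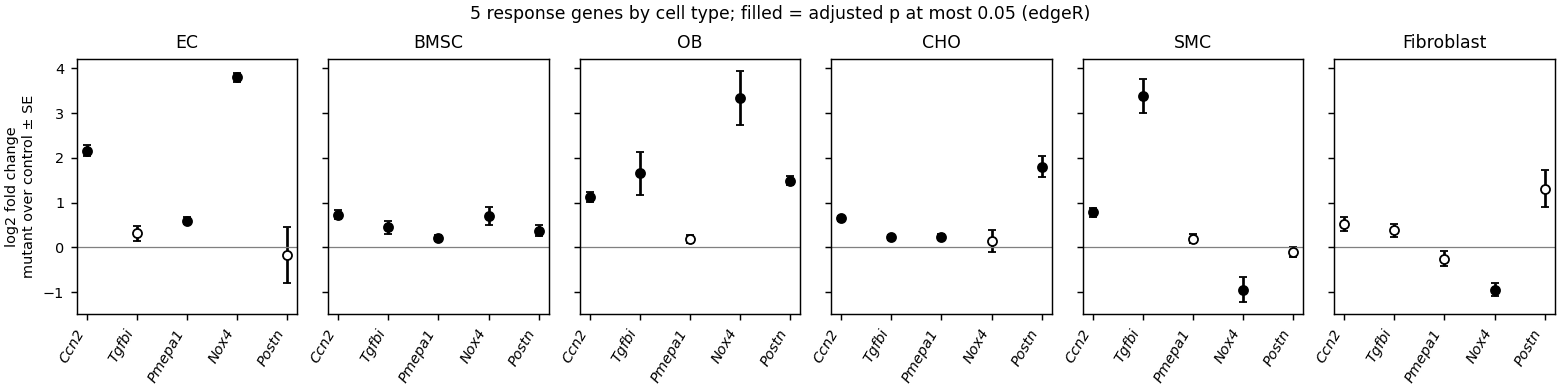
Log2 fold change of mutants over controls with its standard error for 5 response genes in the 6 stromal types, filled where the edgeR adjusted p is at most 0.05. Nox4 runs from 3.80 in ECs to −0.95 in SMCs, and Ccn2 is filled in every type but fibroblasts.

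By source, CHOs gave 49.8% and 44.9% of the Tgfb1 UMIs of the mutant libraries and 31.6% and 32.3% of those of the controls, and OBs gave 4.43% and 6.21% against 17.5% and 20.5%. ECs gave similar shares in all 4 libraries, from 17.2% to 19.8%. Over all kept barcodes Tgfb1 stood at 154 and 151 CPM in mutants and at 106 and 108 CPM in controls, and Tgfb2 at 85.9 and 85.7 against 53.8 and 55.4 CPM. These whole-library levels join the change per cell with the change in cell numbers.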

How the data were processed

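Single-cell libraries (10x Chromium v3, 3′ ends) of 2 mutants and 2 controls were analysed. The authors trimmed reads with cutadapt 3.5, aligned them with STARsolo 2.7.10a to mm39 and GENCODE M26, to which the sequences of the Cre and of the reporters had been added, and took exonic and intronic UMIs. Reads of several genes were shared by expectation maximization, so the deposited values are expected counts, unfiltered and not normalized. Of the entries above 0, 9.71% to 10.6% were not whole numbers.

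A barcode was kept if it had 1000 or more UMIs, 800 or more features and a complexity of at least 0.8, and if mitochondrial genes gave at most 15% and hemoglobin genes at most 5% of its UMIs. The deposited files hold no cell annotation, and types came from a score of marker genes per barcode (at least 0.15, with a lead of at least 0.1), so a name is a range of a score. Of the kept barcodes, 546 and 550 in mutants and 263 and 272 in controls took no type. Another 500 and 692 in mutants and 380 and 410 in controls were mixed. The barcodes with the highest Scrublet scores were called doublets, at a preset share of 0.8% per 1000 barcodes of a library (4.10% to 5.45%). They stayed in and were left out as an alternative. Counts were summed per library and class, rounded and compared with edgeR 4.0.16 (R 4.3.3; quasi-likelihood test, TMM, filterByExpr, Benjamini-Hochberg adjustment over all genes of a class). An edgeR adjusted p of at most 0.05 made a call, and the standard error was derived from the fold change and the F statistic. Differences between types used 1 fit with library and type as terms. Permuting the 4 libraries exactly gives no p under 0.333. CPM values are sums before TMM, which moved the median fold change by at most 0.09 (log2) in the main types, by 0.15 in pericyte-like cells and by 0.11 in growth plate-like CHOs. DESeq2 1.42.0 and the other alternatives are described in the closing section. The edgeR fits were tested on simulated counts.

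The members, the 5 pathway lists and the marker lists were chosen with earlier results of these data known. Named genes are all members in each type, up to 3 called genes per list and type with the largest fold change, and for each ligand the 3 genes with the most similar pattern. The values of 1 gene of the response list are not reported here. Levels by Leiden cluster within ECs, BMSCs, OBs and CHOs were added after the clusters were seen.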

Additional observations from a re-analysis of the deposited data

Results flagged for a closer look

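The values here are differences in the log2 effect of the genotype between cell types. For each of 19 pairs of member and type, the effect in that type differed from the mean effect in the other 5 main types (edgeR interaction test, adjusted p of at most 0.05). Without the 2 clusters almost wholly of mutants, 7 of the 19 passed. With all cells, the difference in ECs was −0.46 for Tgfb1, −0.43 for Tgfbr2, 1.12 for Tgfb3, 0.60 for Ltbp1 and −0.47 for Ltbp3. In BMSCs it was 0.38 for Tgfb1. In OBs it was 1.32 for Tgfb2 and 0.81 for Ltbp1, and in CHOs −0.31 for Tgfb1 and 0.92 for Ltbp4. In SMCs it was −0.86 for Tgfb2, −0.56 for Tgfb3, 0.87 for Tgfb1, 0.70 for Tgfbr1, −0.69 for Tgfbr3, −1.19 for Ltbp1, 2.83 for Ltbp2, 0.65 for Ltbp3 and 1.02 for Ltbp4.

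For another 6 pairs of subclasses, both mutants lay on one side of both controls in one subclass and on the other side in the other, and these differences were not tested. For Tgfb2 the log2 change in arterial-like minus that in metaphyseal-like ECs was −2.97, and that in hypertrophic-like CHOs differed from that in growth plate-like CHOs by −0.99 and from that in superficial-like CHOs by −1.11. For Tgfbr1 the change in hypertrophic-like minus growth plate-like CHOs was −0.69, and that in growth plate-like minus superficial-like CHOs was 0.75. For Ltbp3 the change in hypertrophic-like minus superficial-like CHOs was 1.39. Without the CHO cluster almost wholly of mutants, the log2 change of Tgfb2 in hypertrophic-like CHOs was 0.42, the same direction as in growth plate-like (0.62) and superficial-like CHOs (0.77). In hypertrophic-like CHOs that of Tgfbr1 moved from −0.27 to −0.12 and lost its call (edgeR adjusted p = 0.428), and that of Ltbp3 moved from 1.01 to 0.15 (edgeR adjusted p = 0.375).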

How the results depend on the processing

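The alternatives changed the filter on low counts, the cell filter, the marker gate, the scaling, the test, the treatment of doublets and free RNA, and the libraries used. Leaving out each library in turn gave 15 to 19 members higher (18 with all) and 10 to 14 lower (11) in the main types, 30 to 35 calls in subclasses (41), 9 to 15 differences between types (19) and 111 to 127 calls in the pathway lists (130), where the lone library of a genotype is assumed to vary like the others. DESeq2 gave 22 calls in subclasses and the stricter marker gate 23, and the cause was not tested. Without the 2 clusters almost wholly of mutants, chosen after the data were seen, 7 differences between types remained, on fewer cells. The value then turned for Ltbp2 (0.013) and Bgn (0.011) in CHOs, Fbn1 in SMCs (−0.34), Tgfbr3 (0.17), Tgfb3 (−0.13) and Ltbp1 (0.87) in pericyte-like cells and Tgfb2 in hypertrophic-like CHOs (0.42). Under the stricter gate it turned for Ltbp2 in CHOs (0.0035) and Ltbp4 in sinusoidal-like ECs (−0.63). With the replicate number as a block there were 18 members higher, 11 lower, 42 calls in subclasses and 131 in the lists. The 2 pairs of numbers deviated together little (correlations of −0.05 to 0.11). Counting noise lowers such a correlation, so whether samples of the same number share a batch is not known. The other counts stayed within 1.5 times. Of the main-type calls, 13 of 29 held in each alternative, as did 12 of 41 in subclasses and 38 of 72 named calls of the lists. Cells were fewest in fibroblasts (69 to 88 per library) and in osteo-CAR-like BMSCs of mutants (43 and 45).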

Other observations

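Over the 24 points of library and main type, the genes most like each ligand in log2(CPM + 1), among 17406 genes, were AI467606 (Pearson r = 0.868), Arhgef28 (0.867) and Ccser1 (0.845) for Tgfb1, Cdc42se1 (0.948), Fbxl2 (0.940) and Cd82 (0.917) for Tgfb2, and Ift81 (0.961), Tbx18 (0.945) and Oxct1 (0.940) for Tgfb3. Among the members themselves, Tgfb1 had r = −0.81 with Ltbp1 and −0.77 with Tgfb3. The points share libraries and cell types, and the values are given as a description. In droplets of at most 100 UMIs, which hold free RNA, Tgfb1 stood at 116 and 107 CPM in mutants and at 111 and 107 CPM in controls, while Ltbp1 stood at 57.3 and 50.6 CPM against 99.2 and 114 CPM.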
